A study of Mus musculus with 9 samples.

Results

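Actin and actin-binding cytoskeleton genes were followed in interferon-gamma-treated mouse macrophages of 3 genotypes. The set held 10 genes of the 29763 named genes in the deposited table. It comprised the cytoplasmic actins Actb and Actg1, the monomer-binding proteins Pfn1, Tmsb4x and Tmsb10, the severing factor Cfl1, the actin regulators Coro1a, Arpc2 and Lcp1, and the intermediate filament gene Vim. Members were matched by gene symbol, and all 10 passed the filter on low values. They were selected on their abundance in these same libraries and with earlier results of these data known. Levels and shares are therefore given as a description with no test. The differences between genotypes come from a model fitted across all genes, and counts of called members are likewise a description.

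The cells were bone marrow-derived macrophages, primary macrophages grown from mouse bone marrow. They matured for 7 days in medium with 30% supernatant of L929, a mouse fibroblast line that secretes macrophage colony-stimulating factor. Every group received interferon-gamma at 40 ng/ml for 12 h, so no untreated level was analysed here. The groups were Ndufa4l3-miR147 knockout macrophages (also called Nmes1-deficient), Ndufa4 knockout macrophages and wild-type macrophages, with 3 libraries each. The labels call the 3 libraries of a genotype technical replicates, and whether they came from separate mice or cultures is not known. The p-values below measure the spread between libraries and cannot be read as measuring that between mice. Polyadenylated RNA was sequenced, and values are TPM, which correct for transcript length and for the size of the library. The sources used here do not state the strain, age or sex of the mice.

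Actin is stored in cells as monomers and works as filaments. Thymosins hold monomers in reserve and profilin delivers them to growing filament ends, while the Arp2/3 complex starts branches, coronin and cofilin take filaments apart, and plastin ties them into bundles. In macrophages this turnover drives spreading, migration and the engulfing of particles. Actb is also widely used as a reference gene to which other transcripts are scaled.

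The libraries differed in ways that touch these genes. AA467197, the table's symbol for Nmes1, had 2.9, 2.2 and 4.5 TPM in Ndufa4l3-miR147 knockout libraries, 472 to 527 TPM in Ndufa4 knockout libraries and 355 to 365 TPM in wild-type libraries, while the row named Ndufa4 was at 0.62 TPM or less in every library and checks nothing. Ndufa4 knockout replicate 3 stood apart: its upper-quartile TPM was 7.79, against 9.24 to 9.84 in the other 8 libraries. Its deviation from the mean also followed transcript length, with a Spearman correlation across genes of -0.52, against 0.07 to 0.25 elsewhere. Ndufa4 knockout replicate 1 had 5.32% of TPM on mitochondrially encoded genes, against 4.05% to 4.41% elsewhere. All 8 macrophage markers exceeded 1 TPM, with sums of 8826 to 9019 TPM in Ndufa4l3-miR147 knockout, 9757 to 10220 TPM in Ndufa4 knockout and 9236 to 9371 TPM in wild-type libraries. Their members did not move together, with 1 called higher and 2 lower in Ndufa4 knockout against wild type, and 1 higher and 1 lower in Ndufa4l3-miR147 knockout against Ndufa4 knockout. Fibroblast markers, from cells that are rich in actin and vimentin, summed to 37.7 to 46.1, 6.96 to 131 and 7.72 to 45.1 TPM in Ndufa4l3-miR147 knockout, Ndufa4 knockout and wild type. Only 4 of the 8 fibroblast markers reached 1 TPM in any library, and none was called in any comparison. Dendritic cell markers, 2 of 5 above 1 TPM, summed to 30.0 to 35.3, 40.8 to 76.6 and 27.7 to 29.6 TPM in the same order, and 1 was called higher in Ndufa4 knockout against wild type. Erythroid and megakaryocyte markers summed to 129 to 173, 81.6 to 120 and 108 to 239 TPM, with 1 called lower in that comparison, and no lymphocyte marker reached 1 TPM. Neutrophil markers, 5 of 8 above 1 TPM and none called, summed to 37.8 to 75.2, 1.47 to 38.8 and 3.68 to 79.9 TPM. Ndufa4 knockout replicate 3 had the fibroblast marker Col3a1 at 116 TPM, against 29.3 and 2.12 TPM in replicates 1 and 2. It had the neutrophil marker S100a9 at 0.16 TPM, against 15.5 and 13.0 TPM. Wild-type replicate 1 was low in both, at 2.61 and 0.96 TPM. The part of these cell types in the results was not tested. In bulk RNA, fewer cells of a type and less RNA per cell cannot be told apart.

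Taken as a share of each library's full TPM, the 10 transcripts held 2.92%, 2.94% and 2.95% in Ndufa4l3-miR147 knockout libraries, 3.27%, 3.23% and 3.34% in Ndufa4 knockout libraries, and 2.84%, 2.86% and 2.82% in wild-type libraries. The Ndufa4 knockout libraries were the highest, the Ndufa4l3-miR147 knockout libraries lay between, and no library of a genotype overlapped another genotype. The means were 2.94% ± 0.0172, 3.28% ± 0.0531 and 2.84% ± 0.0206 (SD, n = 3 each). Tmsb4x alone held 0.880%, 1.013% and 0.842% and Actb 0.518%, 0.609% and 0.473% of the TPM, as means over Ndufa4l3-miR147 knockout, Ndufa4 knockout and wild-type libraries. As shares of the TPM listed in the table without mitochondrially encoded genes, the means were 3.36%, 3.76% and 3.25%, in the same order of genotypes.

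**Figure D1:**
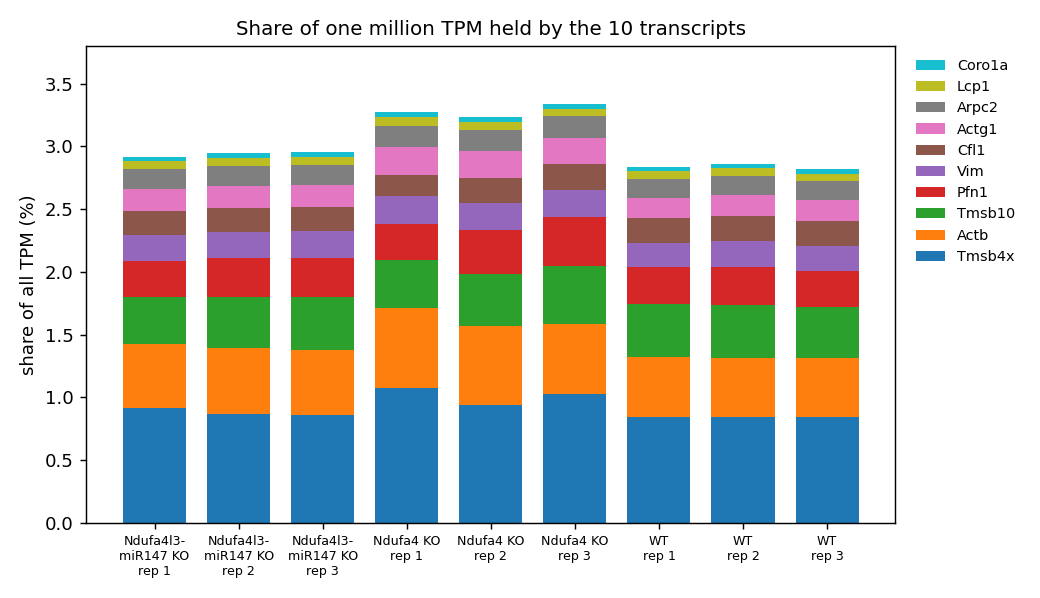
Share of each library's full TPM (%, y axis) held by the 10 transcripts, stacked by gene, for the 9 libraries (x axis). The Ndufa4 knockout bars reach 3.23% to 3.34%, the Ndufa4l3-miR147 knockout bars 2.92% to 2.95% and the wild-type bars 2.82% to 2.86%.

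Per length, Tmsb4x was the most abundant member and stood at rank 3 of all genes by mean TPM over the 9 libraries. It was followed by Actb at rank 9, Tmsb10 at rank 16, Pfn1 at rank 30, Vim at rank 47, Cfl1 at rank 51, Actg1 at rank 57, Arpc2 at rank 73, Lcp1 at rank 250 and Coro1a at rank 418. In wild-type libraries Vim (1999 ± 45.8 TPM) and Cfl1 (1999 ± 15.7 TPM) were level (SD, n = 3 each), and Actg1 (1623 ± 15.9 TPM) lay below both in every library. In Ndufa4 knockout libraries Actg1 (2163 ± 80.2 TPM) instead overlapped Vim (2177 ± 55.2 TPM) and lay above Cfl1 (1900 ± 160 TPM) in all 3 libraries. The coefficient of variation of the members within a genotype ran from 0.413% to 5.55% in Ndufa4l3-miR147 knockout, from 2.54% to 15.5% in Ndufa4 knockout and from 0.329% to 2.78% in wild-type libraries. The Ndufa4 knockout libraries thus scattered more than the others, and the fit used 1 shared spread for the 3 genotypes.

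**Figure D2:**
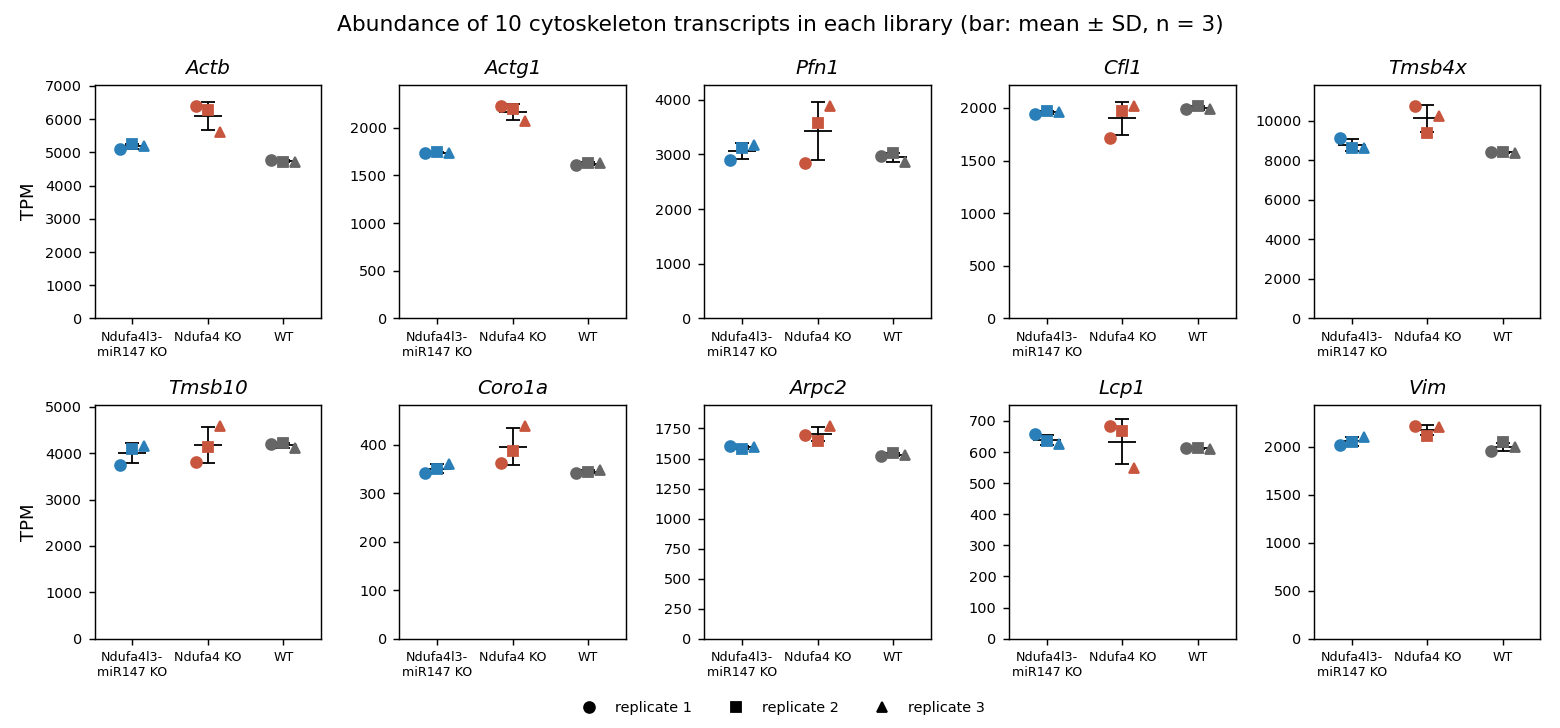
TPM (y axis, from 0) of each of the 10 transcripts in every library, by genotype (x axis), with marker shapes for the replicate number and a bar for the mean ± SD (n = 3). Actb, Actg1, Tmsb4x, Coro1a, Arpc2 and Vim show no overlap between Ndufa4 knockout and wild-type libraries, while Pfn1, Tmsb10 and Lcp1 spread widely in the Ndufa4 knockout.

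In Ndufa4 knockout against wild-type macrophages, 4 of the 10 genes were called, all higher: Actg1, Actb, Tmsb4x and Arpc2. None was called lower. Called means a Benjamini-Hochberg adjusted p under 0.05 from limma, a linear model fitted to log2(TPM + 1) of all 11133 genes kept. The background is wide in this comparison, since 8.59% of all genes kept were called, 2.83% higher and 5.76% lower. That split depended on the scaling: 33.0% of all calls were higher here, against 52.2% with median-of-ratios scaling, 52.1% with quantile normalization and 52.5% with the length trend removed. The members' median difference was 0.18 on the log2 scale, against -0.08 for all genes. For 6 members (Actb, Actg1, Tmsb4x, Coro1a, Arpc2 and Vim) every Ndufa4 knockout library lay above every wild-type library, where 31.1% of all genes kept showed no overlap in either direction.

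Between Ndufa4l3-miR147 knockout and wild-type macrophages, limma called none of the 10 genes, and Actb and Actg1 were the 2 with an unadjusted p under 0.05. Both were called in a fit of those 6 libraries alone, where calls over all genes were also more numerous. Of all genes kept, 0.431% were called, 0.243% higher and 0.189% lower, and 917 had an unadjusted p under 0.05. The members' median difference was 0.06 on the log2 scale, against 0.00 for all genes. Libraries did not overlap for 6 members, 5 of them higher (Actb, Actg1, Tmsb4x, Arpc2 and Lcp1) and 1 lower (Cfl1). Of all genes kept, 23.9% showed no overlap in either direction. The 2 comparisons share the wild-type libraries, so their values stand side by side and are not independent.

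Set directly against each other, Ndufa4l3-miR147 knockout macrophages had lower Actg1 and Actb than Ndufa4 knockout macrophages, 2 of the 10 genes called and none called higher. Of all genes kept, 3.24% were called in this comparison, 2.2% higher and 1.04% lower. Of those calls 67.9% were higher, against 49.2% with median-of-ratios scaling, 50.8% with quantile normalization and 51.3% with the length trend removed. The members' median difference was -0.12 on the log2 scale, against 0.07 for all genes. Actb, Actg1, Tmsb4x, Coro1a, Arpc2 and Vim were lower in every Ndufa4l3-miR147 knockout library than in any Ndufa4 knockout library. Of all genes kept, 25.3% showed no overlap in either direction.

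**Figure D3:**
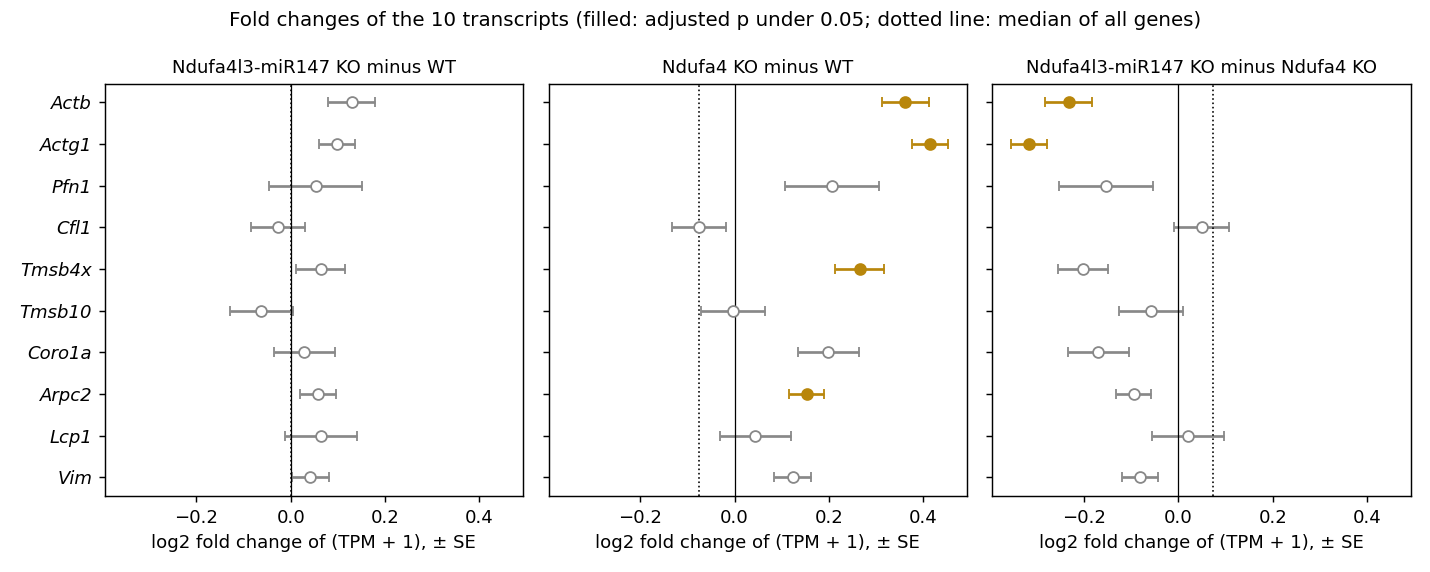
Difference of log2(TPM + 1) with its SE (x axis) for the 10 transcripts (y axis) in the 3 comparisons, filled where the adjusted p was under 0.05, with a dotted line at the median of all genes. Actg1 and Actb lie farthest from 0 in Ndufa4 knockout minus wild type, at 0.41 and 0.36.

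Actb (chr5:142903115-142906754, minus strand, GENCODE on GRCm38, as for the members below) encodes beta-actin, the main cytoplasmic actin. It had 5098, 5255 and 5179 TPM in Ndufa4l3-miR147 knockout libraries, 6389, 6271 and 5618 TPM in Ndufa4 knockout libraries, and 4774, 4713 and 4711 TPM in wild-type libraries. The 3 genotypes did not overlap, and the lowest Ndufa4 knockout library was replicate 3. Actb was higher in Ndufa4 knockout than in wild type by 0.36 ± 0.05 on the log2 scale (± SE, limma adjusted p = 0.00458), or 28.7% in mean TPM. It remained called in each of 19 alternative analyses (adjusted p 0.000289 to 0.0401), although quantile normalization, which gives every library the same distribution, lowered the difference to 0.19. The difference between Ndufa4l3-miR147 knockout and wild type was 0.13 ± 0.05 (limma adjusted p = 0.53). Without Ndufa4 knockout replicate 3, which enters the shared spread, that difference was called (limma adjusted p = 0.0438). The same difference was also called in a fit of the Ndufa4l3-miR147 knockout and wild-type libraries alone (limma adjusted p = 0.0174). Ndufa4l3-miR147 knockout minus Ndufa4 knockout was -0.23 ± 0.05 (limma adjusted p = 0.0429), a call that held in 6 of 19 alternatives. Leaving out any of the 9 libraries other than Ndufa4 knockout replicate 3 removed it, with adjusted p between 0.0585 and 0.161, and without that library the difference was -0.29 (limma adjusted p = 0.00118). Quantile normalization gave -0.09.

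Actg1 encodes gamma-actin (chr11:120345690-120348542, minus strand), the other cytoplasmic actin, which differs from beta-actin in a few residues near its start. It had 1730, 1745 and 1735 TPM in Ndufa4l3-miR147 knockout libraries, 2225, 2192 and 2073 TPM in Ndufa4 knockout libraries, and 1605, 1630 and 1634 TPM in wild-type libraries. Again no genotype overlapped another, and Ndufa4 knockout was highest. Its difference between Ndufa4 knockout and wild type, 0.41 ± 0.04 on the log2 scale, was the largest among the members (limma adjusted p = 0.000881), and equals 33.3% in mean TPM. It was called in all 19 alternatives, with differences of 0.39 to 0.48. Ndufa4l3-miR147 knockout minus wild type was 0.10 ± 0.04 (limma adjusted p = 0.534). That difference was called in a fit of the libraries of these 2 genotypes alone (limma adjusted p = 0.0426). Ndufa4l3-miR147 knockout minus Ndufa4 knockout was -0.32 ± 0.04 (limma adjusted p = 0.00401), called in 18 of 19 alternatives and not in a fit of those 6 libraries alone (limma adjusted p = 0.0611).

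Because the coding sequences of the actins are nearly identical, reads can be divided among them in ways the deposited values do not show. The sum of Actb and Actg1 depends little on how reads were divided between these 2 genes, whose transcripts are close in length (1920 and 1889 nt). It was 6828, 6999 and 6915 TPM in Ndufa4l3-miR147 knockout libraries, 8615, 8464 and 7691 TPM in Ndufa4 knockout libraries, and 6379, 6343 and 6345 TPM in wild-type libraries. The sums kept the same order with no overlap. The ratio of Actb to Actg1 was 2.95 to 3.01 in Ndufa4l3-miR147 knockout, 2.71 to 2.87 in Ndufa4 knockout and 2.88 to 2.97 in wild-type libraries. The muscle actins were scarce. Acta1 averaged 6.67 ± 6.75 TPM in Ndufa4l3-miR147 knockout, 10.1 ± 7.89 TPM in Ndufa4 knockout and 12.4 ± 6.32 TPM in wild type, and Actc1 averaged 27.5 ± 2.15, 38.0 ± 8.65 and 30.8 ± 3.98 TPM (SD, n = 3 each). Acta2, the smooth muscle actin, lay between 0.84 and 2.12 TPM in the 9 libraries. None of these 3 was called in any comparison, and Actg2 did not pass the filter.

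Promoter sequences are shown for the called genes that have an entry in the RefSeq promoter table (GRCm38.p6), Actg1, Tmsb4x and Arpc2, and for Cfl1, the member whose estimate in the Ndufa4 knockout was lowest. Each is 1 window, read 5′ to 3′ on the gene's strand, of 250 bases before to 50 bases after the annotated start. Actg1 lies on the minus strand at chr11:120348446-120348745, Tmsb4x on the minus strand at chrX:167209169-167209468, Arpc2 on the plus strand at chr1:74236267-74236566 and Cfl1 on the plus strand at chr19:5490205-5490504. Capitals mark the CArG box, the element bound by serum response factor (CC, 6 A or T bases, GG), and the GC box core GGGCGG, both searched on either strand, with overlapping matches counted separately.
Actg1: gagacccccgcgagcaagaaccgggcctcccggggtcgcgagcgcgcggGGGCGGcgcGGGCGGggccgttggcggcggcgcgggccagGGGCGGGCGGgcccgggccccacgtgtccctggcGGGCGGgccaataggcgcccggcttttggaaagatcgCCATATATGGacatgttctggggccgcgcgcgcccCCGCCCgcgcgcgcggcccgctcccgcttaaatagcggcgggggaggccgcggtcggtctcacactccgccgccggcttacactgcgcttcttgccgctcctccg
Tmsb4x: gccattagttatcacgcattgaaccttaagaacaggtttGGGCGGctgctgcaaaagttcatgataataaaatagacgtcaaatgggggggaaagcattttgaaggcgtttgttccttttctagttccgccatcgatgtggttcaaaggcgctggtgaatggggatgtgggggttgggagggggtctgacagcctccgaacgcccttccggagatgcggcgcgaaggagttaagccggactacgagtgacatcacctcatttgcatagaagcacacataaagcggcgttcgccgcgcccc
Arpc2: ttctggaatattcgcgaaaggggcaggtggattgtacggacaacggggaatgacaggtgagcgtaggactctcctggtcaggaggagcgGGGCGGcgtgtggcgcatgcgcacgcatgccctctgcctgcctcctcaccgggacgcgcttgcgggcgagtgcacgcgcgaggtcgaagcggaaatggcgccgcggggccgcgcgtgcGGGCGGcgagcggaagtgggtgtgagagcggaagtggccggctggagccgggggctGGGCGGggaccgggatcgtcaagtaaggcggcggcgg
Cfl1: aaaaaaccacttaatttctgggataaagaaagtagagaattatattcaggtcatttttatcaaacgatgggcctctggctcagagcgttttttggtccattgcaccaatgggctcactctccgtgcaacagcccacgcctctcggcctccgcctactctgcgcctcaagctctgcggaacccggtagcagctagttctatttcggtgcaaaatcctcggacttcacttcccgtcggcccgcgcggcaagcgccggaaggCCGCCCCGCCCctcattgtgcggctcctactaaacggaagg

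A CArG box stood in the Actg1 window, with its first base 90 bases before the start, and in none of the 12 windows of the other 8 members that have one. Actb has no window and was not searched, so the match does not set Actg1 apart from Actb. Among all 32851 windows of the table, 1.63% held one. GGGCGG occurred in 11 of the 13 windows and 8 of the 9 members, against 35.7% of all windows, with 6 matches in Actg1, 3 in Arpc2, 2 in Cfl1 and 1 in Tmsb4x. TATAAA, the TATA box core, was found in the window of Vim alone, against 13.6% of all windows. The windows of Actg1, Tmsb4x and Arpc2, and that of Cfl1, which was not called, therefore all held GGGCGG. A match describes letters in the window and is not evidence of binding.

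Tmsb4x encodes thymosin beta 4 (chrX:167207093-167209315, minus strand), the chief protein that sequesters actin monomers. It had 9140, 8634 and 8616 TPM in Ndufa4l3-miR147 knockout libraries, 10751, 9386 and 10257 TPM in Ndufa4 knockout libraries, and 8428, 8438 and 8386 TPM in wild-type libraries. Both knockouts lay above wild type in every library, by a wider gap in the Ndufa4 knockout. Tmsb4x was higher in Ndufa4 knockout than in wild type by 0.27 ± 0.05 on the log2 scale (limma adjusted p = 0.0182), or 20.4% in mean TPM. The call held in 11 of 19 alternatives. Dropping wild-type replicate 1, 2 or 3 ended it, with limma adjusted p of 0.0797, 0.0786 and 0.0759. So did removal of the length trend, quantile normalization, no filter on low values, no intensity trend and a fit of the 6 libraries alone, with limma adjusted p of 0.0552, 0.0605, 0.147, 0.0507 and 0.0776. The difference was 0.06 ± 0.05 in Ndufa4l3-miR147 knockout against wild type (limma adjusted p = 0.925) and -0.20 ± 0.05 in Ndufa4l3-miR147 knockout against Ndufa4 knockout (limma adjusted p = 0.0784). Without Ndufa4 knockout replicate 2, its lowest library of that genotype, the last of these was called (limma adjusted p = 0.0207).

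Tmsb10, for thymosin beta 10 (chr6:72957347-72958748, minus strand), a close relative of thymosin beta 4 that also binds monomers, gave another picture. It had 3748, 4097 and 4160 TPM in Ndufa4l3-miR147 knockout libraries, 3810, 4137 and 4578 TPM in Ndufa4 knockout libraries, and 4191, 4216 and 4114 TPM in wild-type libraries. The genotypes overlapped, and within each knockout replicate 1 was lowest. Its difference was -0.00 ± 0.07 in Ndufa4 knockout against wild type (limma adjusted p = 0.978) and -0.06 ± 0.07 in Ndufa4l3-miR147 knockout against wild type (limma adjusted p = 0.987). The estimate for the Ndufa4 knockout was 0.07 with median-of-ratios scaling, so its sign depended on the scaling. Tmsb4x over Tmsb10 was 2.44, 2.11 and 2.07 in Ndufa4l3-miR147 knockout libraries, 2.82, 2.27 and 2.24 in Ndufa4 knockout libraries, and 2.01, 2.0 and 2.04 in wild-type libraries. Both knockouts lay above wild type in that ratio in every library, and these are the shortest transcripts of the set, at 768 and 623 nt.

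Pfn1 encodes profilin 1 (chr11:70651850-70654644, minus strand), which carries monomers to filament ends. It had 2901, 3111 and 3174 TPM in Ndufa4l3-miR147 knockout libraries, 2847, 3567 and 3883 TPM in Ndufa4 knockout libraries, and 2963, 3026 and 2863 TPM in wild-type libraries. In the Ndufa4 knockout, replicates 2 and 3 lay above every wild-type library and replicate 1 lay below all of them. The estimate of 0.21 ± 0.10 was not called (limma adjusted p = 0.226). Without Ndufa4 knockout replicate 1, the library with the high mitochondrial share, it was 0.34 and called (limma adjusted p = 0.0121), and in Ndufa4l3-miR147 knockout minus Ndufa4 knockout it was then -0.28 and called (limma adjusted p = 0.0327), against -0.15 ± 0.10 with all libraries (limma adjusted p = 0.398). Without replicate 3 it was 0.11. The Ndufa4l3-miR147 knockout differed from wild type by 0.05 ± 0.10.

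Cfl1 encodes cofilin 1 (chr19:5490455-5495201, plus strand), which severs filaments and returns their subunits to the monomer pool. It had 1946, 1974 and 1964 TPM in Ndufa4l3-miR147 knockout libraries, 1718, 1967 and 2016 TPM in Ndufa4 knockout libraries, and 1989, 2017 and 1990 TPM in wild-type libraries. All Ndufa4l3-miR147 knockout libraries lay just below all wild-type libraries, while the Ndufa4 knockout spread across both, with replicate 1 the lowest of the 9 libraries. The differences were -0.03 ± 0.06 in Ndufa4l3-miR147 knockout and -0.08 ± 0.06 in Ndufa4 knockout against wild type, neither called (limma adjusted p = 1 and 0.43). Pfn1 over Cfl1 was 1.49 to 1.62 in Ndufa4l3-miR147 knockout, 1.66 to 1.93 in Ndufa4 knockout and 1.44 to 1.5 in wild-type libraries. This ratio was higher in every Ndufa4 knockout library than in any other library, by a narrow gap. Actb over Cfl1 was also separate, at 2.79 to 3.72 in Ndufa4 knockout and 2.34 to 2.40 in wild type. Actb over Tmsb4x (0.55 to 0.67 and 0.56 to 0.57) and Actb over Pfn1 (1.45 to 2.24 and 1.56 to 1.65) overlapped between these genotypes. The ratios were not tested.

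Arpc2 encodes a subunit of the Arp2/3 complex (chr1:74236084-74268209, plus strand), which starts branched filaments. It had 1607, 1581 and 1596 TPM in Ndufa4l3-miR147 knockout libraries, 1698, 1647 and 1768 TPM in Ndufa4 knockout libraries, and 1523, 1547 and 1527 TPM in wild-type libraries. The 3 genotypes formed separate steps, with Ndufa4 knockout highest. Arpc2 was higher in Ndufa4 knockout than in wild type by 0.15 ± 0.04 on the log2 scale (limma adjusted p = 0.0404), or 11.2% in mean TPM. This was the least stable of the 4 calls: it held in 7 of 19 alternatives. Dropping wild-type replicate 1, 2 or 3 ended it (limma adjusted p = 0.146, 0.125 and 0.141), and so did dropping replicate 1, 2 or 3 of the Ndufa4l3-miR147 knockout (limma adjusted p = 0.0717, 0.0806 and 0.0793). It was also lost with no filter, median-of-ratios scaling, quantile normalization, no intensity trend, the replicate block and a fit of the 6 libraries alone. Ndufa4l3-miR147 knockout minus wild type was 0.06 ± 0.04, not called.

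Coro1a, for coronin 1A (chr7:126699773-126707787, minus strand), a coronin of blood cells that binds actin filaments, had 342, 350 and 361 TPM in Ndufa4l3-miR147 knockout libraries, 363, 387 and 438 TPM in Ndufa4 knockout libraries, and 341, 343 and 347 TPM in wild-type libraries. Every Ndufa4 knockout library was above every other library. The difference from wild type was 0.20 ± 0.06 and not called (limma adjusted p = 0.0934), and it was 0.26 and called without Ndufa4 knockout replicate 1 (limma adjusted p = 0.0283). The Ndufa4l3-miR147 knockout differed from wild type by 0.03 ± 0.06 and overlapped it.

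Lcp1, for L-plastin (chr14:75131101-75230842, plus strand), which bundles filaments in leukocytes, had 658, 635 and 626 TPM in Ndufa4l3-miR147 knockout libraries, 683, 669 and 549 TPM in Ndufa4 knockout libraries, and 614, 612 and 609 TPM in wild-type libraries. Replicate 3 of the Ndufa4 knockout was the lowest of the 9 libraries, while the other Ndufa4 knockout libraries were the highest. Ndufa4 knockout minus wild type was 0.04 ± 0.08 (limma adjusted p = 0.744), and 0.14 without replicate 3, then called (limma adjusted p = 0.0234). With the trend against transcript length removed from each library it was 0.15, also called (limma adjusted p = 0.0277). Lcp1 is the longest member, at 3594 nt, and replicate 3 is the library whose values follow length.

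Vim, for vimentin (chr2:13573927-13582826, plus strand), the intermediate filament protein of macrophages and mesenchymal cells, had 2016, 2049 and 2107 TPM in Ndufa4l3-miR147 knockout libraries, 2214, 2114 and 2203 TPM in Ndufa4 knockout libraries, and 1955, 2046 and 1995 TPM in wild-type libraries. The Ndufa4 knockout lay above all other libraries, and the other genotypes overlapped. Its difference from wild type was 0.12 ± 0.04 and not called (limma adjusted p = 0.0843), and it passed in 1 of 19 alternatives, removal of the length trend (limma adjusted p = 0.0359). The Ndufa4l3-miR147 knockout differed from wild type by 0.04 ± 0.04.

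The members' deviations in Ndufa4 knockout replicate 3 are set beside their transcript lengths here, and the part of length in them was not tested. Relative to the mean of replicates 1 and 2, replicate 3 differed by 0.28 for Pfn1 (861 nt), 0.21 for Tmsb10 (623 nt) and 0.22 for Coro1a (1703 nt) on the log2 scale. The same difference was -0.09 for Actg1 (1889 nt), -0.17 for Actb (1920 nt) and -0.30 for Lcp1 (3594 nt). The other members did not keep to this order of length: Cfl1 (2354 nt) differed by 0.13, Arpc2 (1421 nt) by 0.08, Vim (1985 nt) by 0.03 and Tmsb4x (768 nt) by 0.03. All members but Lcp1 are shorter than the median of the genes kept, 2682 nt. With replicate 3 left out, Actb, Actg1, Tmsb4x and Arpc2 were all called and Lcp1 was added, 5 of 10 members. Calls over all genes also numbered more in that fit, 1587 against 956 with all libraries.

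**Figure D4:**
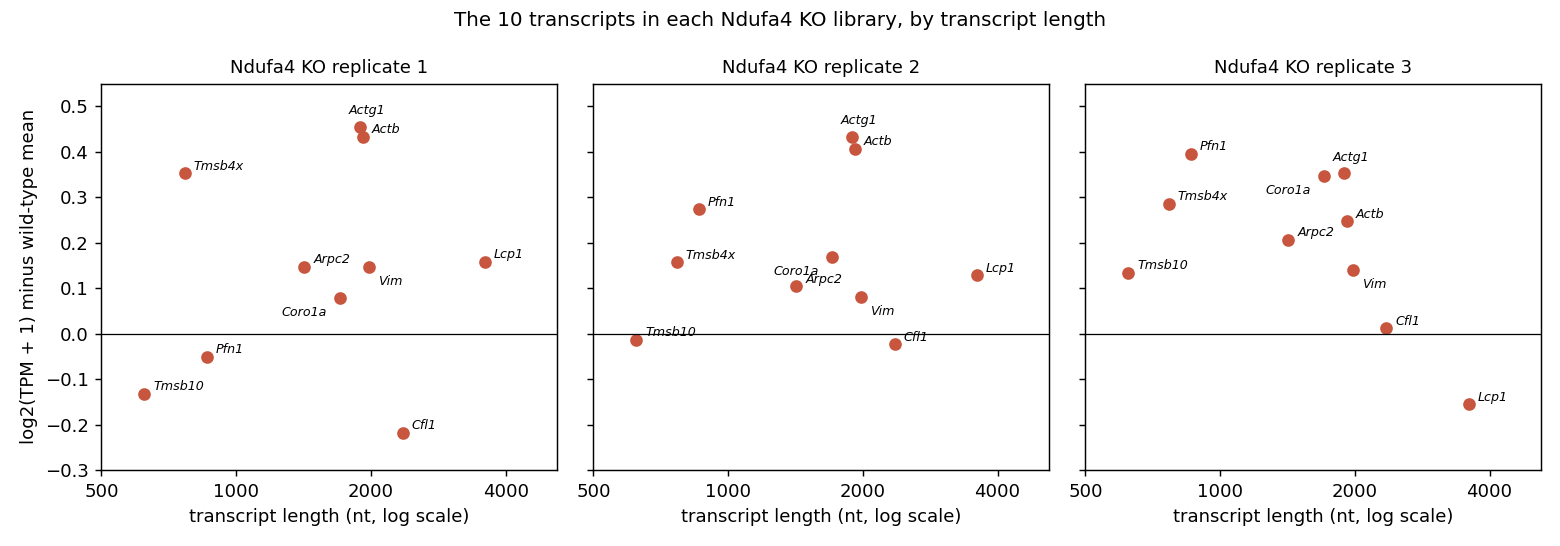
Difference of log2(TPM + 1) from the wild-type mean (y axis) against transcript length (x axis, log scale, nt) for the 10 transcripts in each Ndufa4 knockout library. Actg1 and Actb lie above 0.2 in all 3 libraries, while Lcp1 (3594 nt) is below 0 in replicate 3 only and Pfn1 (861 nt) is below 0 in replicate 1 only.

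Over the 9 libraries, log2(TPM + 1) of Actb and Actg1 had a Pearson r of 0.98, Tmsb4x and Arpc2 of 0.92, and Pfn1 and Coro1a of 0.90. The lowest value among the members was that of Tmsb10 with Lcp1, -0.86. These describe 9 libraries that share genotype, scaling and the length trend, and are not tests. Among the 7281 genes of at least 10 TPM, those most like the members' summed TPM included Tubb2a (r = 0.990), Cpne2 (0.990), Mrpl52 (0.987) and Atad3a (0.985). Those most like Actb were Pcna (0.987), Psat1 (0.986), Acsl1 (0.979), Ranbp1 (0.976) and Ass1 (0.975), over the same 9 libraries.

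The wider cytoskeleton was read from lists of 145 further genes in 15 roles, of which 134 passed the filter. In Ndufa4 knockout against wild type, 13 of the 134 were called higher and 5 lower, with a median difference of 0.01 on the log2 scale, against -0.08 for all genes. Over all genes kept, the shares called were 2.83% higher and 5.76% lower. The split leaned further to higher calls with median-of-ratios scaling (18 higher, 2 lower) and with the length trend removed (22 higher, 2 lower). The split over all genes also moved towards higher calls under both settings. Between Ndufa4l3-miR147 knockout and wild type 1 of the 134 was called, lower, with a median of 0.01, where 0.189% of all genes kept were called lower. Between Ndufa4l3-miR147 knockout and Ndufa4 knockout 3 were higher and 7 lower, with a median of 0.01. Over all genes kept, 2.2% were called higher and 1.04% lower. The list split was 1 higher and 7 lower with median-of-ratios scaling, 1 and 6 with quantile normalization, and 2 and 15 with the length trend removed. The split over all genes also moved towards lower calls under these settings.

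Tubulins, the subunits of microtubules, held the largest number of calls of any role. In the Ndufa4 knockout 5 of 11 were higher than in wild type (Tubb2a, Tubb6, Tuba1c, Tubb2b and Tubb5) and 1 was lower (Tuba4a), with a median difference of 0.18. Over all genes kept, 2.83% were called higher and 5.76% lower in that comparison. Tubb2a had 194, 195 and 217 TPM in Ndufa4 knockout libraries and 134, 136 and 138 TPM in wild-type libraries, with no overlap. Its difference was 0.57 ± 0.06 (limma adjusted p = 0.000985). Tubb6, at 142 ± 12.2 TPM in Ndufa4 knockout and 93.5 ± 3.29 TPM in wild type (SD, n = 3 each), was higher by 0.60 ± 0.07 (limma adjusted p = 0.00156). Tuba4a went the other way and was lower in both knockouts. It had 62.3, 59.7 and 56.7 TPM in Ndufa4l3-miR147 knockout libraries, 56.3, 57.9 and 63.3 TPM in Ndufa4 knockout libraries, and 84.6, 77.7 and 76.7 TPM in wild-type libraries. The knockouts overlapped each other and lay below wild type, by -0.41 ± 0.07 in the Ndufa4l3-miR147 knockout (limma adjusted p = 0.038) and -0.42 ± 0.07 in the Ndufa4 knockout (limma adjusted p = 0.0078). The call in the Ndufa4l3-miR147 knockout held in 6 of 19 alternatives and was lost on leaving out any 1 library of the Ndufa4l3-miR147 knockout or wild type, or Ndufa4 knockout replicate 2, with limma adjusted p of at most 0.232. Tuba1c, Tuba4a, Tubb2a and Tubb6 were the 4 list genes called in every alternative in Ndufa4 knockout against wild type. The same 5 beta and alpha tubulins were lower in Ndufa4l3-miR147 knockout than in Ndufa4 knockout, among them Tubb2a (-0.40 ± 0.06, limma adjusted p = 0.00792) and Tuba1c (-0.31 ± 0.05, limma adjusted p = 0.0131). Tubulins are close paralogs, and reads shared between them make single values uncertain.

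Among actin regulators, calls in Ndufa4 knockout against wild type were spread over several roles. Evl, of the Ena/VASP family that promotes filament growth, averaged 87.8 ± 9.32 TPM in Ndufa4 knockout and 63.6 ± 2.66 TPM in wild type (SD, n = 3 each), higher by 0.45 ± 0.08 (limma adjusted p = 0.0104). Nckap1l, the blood-cell subunit of the WAVE complex, was higher by 0.22 ± 0.05 (limma adjusted p = 0.0244), and Hcls1, a cortactin relative, by 0.22 ± 0.05 (limma adjusted p = 0.0369). Both act on the Arp2/3 complex. Of the 9 other genes listed for that complex only Arpc5l was called, higher by 0.22 ± 0.05 (limma adjusted p = 0.0288). Of the 10 other bundling and crosslinking genes, 3 were higher, Tagln2 by 0.18 ± 0.04 (limma adjusted p = 0.0176), Actn1, an alpha-actinin, by 0.25 ± 0.05 (limma adjusted p = 0.0253), and Flna, for filamin A. The GTPase gene Rhoc was higher by 0.45 ± 0.10 (limma adjusted p = 0.0295), and Rac2, the GTPase of blood cells, was lower (-0.22 ± 0.05, limma adjusted p = 0.0278). The higher calls differed in stability. Evl was called in 17 of 19 alternatives, Rhoc in 14, Tagln2 and Actn1 in 13, Nckap1l in 12, Arpc5l in 9, and Hcls1 and Flna in 8.

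Lower in the Ndufa4 knockout were also Eps8, a filament-capping protein, at 8.94 ± 0.98 TPM against 12.6 ± 0.32 TPM in wild type (-0.46 ± 0.10, limma adjusted p = 0.0215), and Ilk, the integrin-linked kinase (-0.19 ± 0.05, limma adjusted p = 0.045). Ilk was called in 4 of 19 alternatives and Rac2 in 7, with limma adjusted p of up to 0.286 and 0.236, and both calls were lost with median-of-ratios scaling, quantile normalization and the length trend removed. Mkl1, a coactivator of serum response factor that is released when actin monomers are scarce, averaged 26.1 ± 5.17 TPM in Ndufa4 knockout and 35.5 ± 0.51 TPM in wild type (SD, n = 3 each). It was lower, at -0.45 ± 0.12 on the log2 scale (limma adjusted p = 0.0489), a call that held in 2 of 19 alternatives and not without Ndufa4 knockout replicate 3. Most of these calls rested on every wild-type library: of the 18 list genes called, 5, 4 and 5 remained called without wild-type replicate 1, 2 or 3, and 17 without Ndufa4 knockout replicate 3.

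No gene was called in this comparison among 3 further monomer-binding genes, 8 severing and turnover genes, 4 coronins, 15 tropomyosins and myosins, and 8 intermediate filament and lamin genes. Their most abundant members were Cap1 (0.07 ± 0.04), Wdr1 (0.15 ± 0.07), Coro1b (0.08 ± 0.08), Myl6 (0.15 ± 0.05) and Lmna (0.19 ± 0.08), as differences on the log2 scale ± SE. Limma adjusted p ran from 0.0793 for Myl6 to 0.516 for Coro1b.

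**Figure D5:**
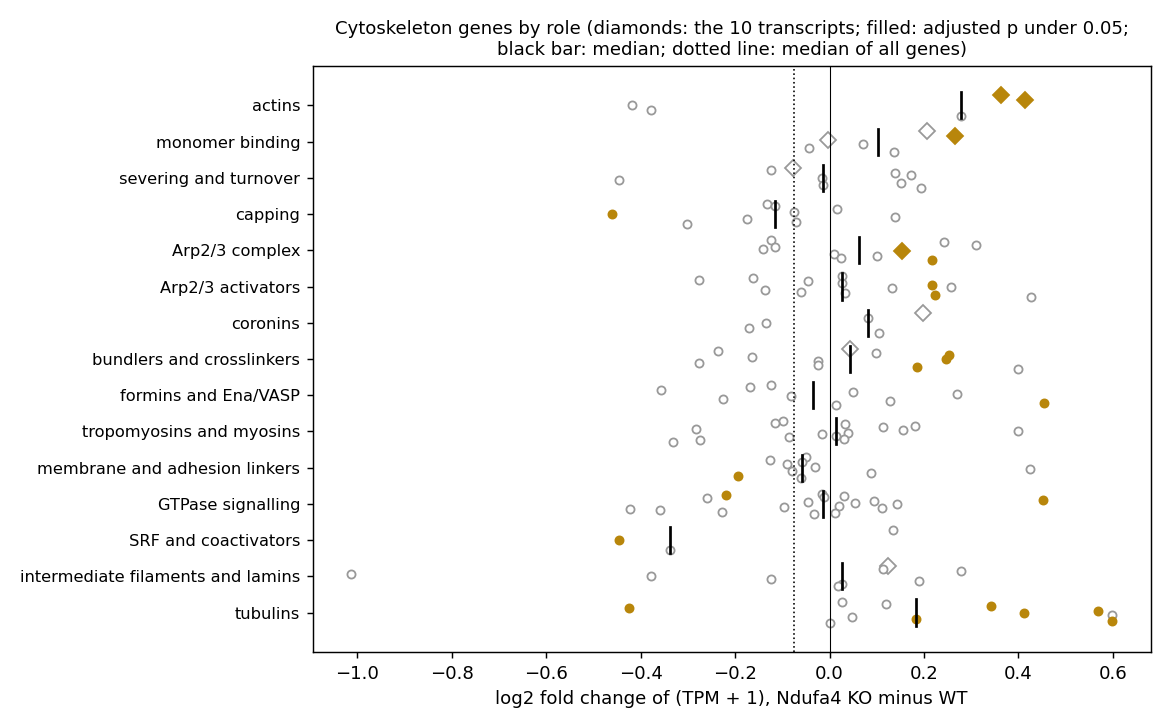
Difference of log2(TPM + 1) between Ndufa4 knockout and wild type (x axis) for every cytoskeleton gene kept, by role (y axis), with the 10 transcripts as diamonds, filled symbols for an adjusted p under 0.05, a black bar at the median of the genes shown and a dotted line at the median of all genes. Of the 11 tubulins, 5 are filled to the right of 0 and 1 to the left, and of the 5 actins shown only Actb and Actg1 are filled.

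In Ndufa4l3-miR147 knockout against Ndufa4 knockout, calls outside the tubulins were few. Gmfg, which promotes the loss of filament branches, was lower at 62.0 ± 3.54 TPM in Ndufa4l3-miR147 knockout and 81.8 ± 7.47 TPM in Ndufa4 knockout (-0.39 ± 0.08, limma adjusted p = 0.028), and Evl was lower too (-0.44 ± 0.08, limma adjusted p = 0.0189). Rhob was higher by 0.41 ± 0.07 (limma adjusted p = 0.0174), Eps8 by 0.46 ± 0.10 (limma adjusted p = 0.0375), and Limk2, a kinase that inactivates cofilin, by 0.63 ± 0.14 (limma adjusted p = 0.045). None of these 10 list genes held in every alternative, and fitting those 6 libraries alone called none of them.

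As a reference gene, Actb varied more than most of 16 common choices. Its range over the 9 libraries was 0.315 of its mean, rank 11 from the narrowest, where Ppia (0.132) and B2m (0.165) were narrowest and Tfrc (0.409) and Sdha (0.516) widest. Dividing by Actb subtracts the change of Actb from every gene on the log2 scale, so the shifts below are arithmetic and not a test. In Ndufa4 knockout against wild type, Hprt differed by 0.03 in TPM and by -0.34 as a ratio to Actb, Ppia by 0.05 and -0.31, Gapdh by 0.16 and -0.21, and B2m by -0.07 and -0.43, all on the log2 scale. The sign of Hprt, Ppia and Gapdh was therefore positive in TPM and negative relative to Actb. None of the TPM differences of Hprt, Ppia, Gapdh and B2m was called (limma adjusted p = 0.81, 0.617, 0.134 and 0.46).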

How the data were processed

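Values were TPM as deposited by the authors in 1 table, in 9 columns of 3 genotypes. The submitters' processing notes name the tools kallisto, edgeR and DESeq2 without versions or roles, and the builds mm10 and GRCm39. The sources used here state neither the annotation nor read filters. Since TPM keep no read depth, the depth is unknown and counting error cannot be stated. TPM are shares of a fixed total, so a gain of abundant genes lowers other values. Between 7.83% and 8.65% of each library's TPM lay outside the table, 8730 genes were listed at 0 throughout, and an entry without a name (at most 0.00277%) was left out.

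Values were taken as log2(TPM + 1), a scale that understates changes of low genes. A gene was kept if 3 or more of the 9 libraries reached 1 TPM. A linear model with a mean for each genotype was fitted to the 9 libraries together (limma 3.58.1 under R 4.3.3, intensity trend on), two-sided, with Benjamini-Hochberg adjustment over all 11133 genes kept. The fit was run on simulated data in which each gene had the same spread in every genotype and no library had a length trend. That run cannot judge the fit under the uneven spread of these libraries. Alternatives were another pseudocount (0.1 or 5), no filter, median-of-ratios or quantile scaling, rescaling without mitochondrially encoded genes, removal of each library's trend against transcript length, no intensity trend, a replicate block, only the 6 libraries compared, and each library left out.

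The members and lists were chosen with earlier results of these data known. Named genes were the 10 members, every actin, and for each list and comparison up to 2 genes called in each direction, taken by adjusted p, or the gene of highest mean TPM where no gene was called; Flna, Tubb2b, Tubb5 and, in Ndufa4 knockout against wild type, Tuba1c were named to complete counts. The 5 genes most like the summed TPM (1 of them is not reported here) and the 5 most like Actb by Pearson r, and the narrowest and widest 2 of 16 reference genes, were also named; Hprt and Gapdh were added as common choices. Lengths, for 99.5% of genes kept, came from GENCODE M21 and promoter windows from RefSeq, both GRCm38; the table itself gives no coordinates.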

Additional observations from a re-analysis of the deposited data

How the results depend on the processing

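Each comparison was repeated under 19 alternatives. In Ndufa4 knockout against wild type, 2 members instead of 4 were called with no filter, with quantile normalization, without the intensity trend and with only the 6 libraries compared, and 2 to 6 on leaving out 1 library. The 2 called throughout were Actb and Actg1. Between Ndufa4l3-miR147 knockout and wild type, 2 instead of 0 were called with only the 6 libraries compared and 0 to 1 on leaving out 1 library. In Ndufa4l3-miR147 knockout against Ndufa4 knockout, 1 instead of 2 was called with no filter, quantile normalization, no intensity trend or the replicate block, 0 with only the 6 libraries compared, and 1 to 2 on leaving out 1 library.

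Over all genes, calls in Ndufa4l3-miR147 knockout against wild type numbered 48, and 30 without the intensity trend, 306 with only the 6 libraries compared and 13 to 202 on leaving out 1 library. In Ndufa4 knockout against wild type they numbered 956, and 238 with only the 6 libraries compared and 261 to 1587 on leaving out 1 library. In Ndufa4l3-miR147 knockout against Ndufa4 knockout they numbered 361, and 64 with only the 6 libraries compared and 82 to 742 on leaving out 1 library. The highest count on leaving out 1 library came without Ndufa4 knockout replicate 3 in each comparison. Of the cytoskeleton lists, 1 gene was called in Ndufa4l3-miR147 knockout against wild type, 0 with no filter, median-of-ratios, quantile, length-trend removal, no intensity trend or the replicate block, 7 with only the 6 libraries compared, and 0 to 4 on leaving out 1 library. In Ndufa4 knockout against wild type 18 were called, 12 with no filter or the replicate block, 9 without the intensity trend, 4 with only the 6 libraries compared and 4 to 28 on leaving out 1 library. Between Ndufa4l3-miR147 knockout and Ndufa4 knockout 10 were called, 5 with no filter, 17 with the length trend removed, 0 with only the 6 libraries compared and 1 to 16 on leaving out 1 library. The cause of these differences was not tested.

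The replicate numbers did not pair the libraries: deviations of same-numbered libraries correlated between -0.14 and 0.18. With the number as a replicate block, 24, 661 and 162 genes were called in Ndufa4l3-miR147 knockout against wild type, Ndufa4 knockout against wild type and Ndufa4l3-miR147 knockout against Ndufa4 knockout, and Arpc2 in the second (limma adjusted p = 0.0792) and Actb in the last (limma adjusted p = 0.082) were not called.

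Signs turned only for uncalled members. For Ndufa4 knockout against wild type, Tmsb10 was 0.0667 with median-of-ratios scaling and -0.0721 to 0.0604 on leaving out 1 library, and Lcp1 was -0.0029 with quantile normalization and -0.0131 to 0.1435 on leaving out 1 library. For Ndufa4l3-miR147 knockout against Ndufa4 knockout, Cfl1 was -0.0214 with median-of-ratios scaling and -0.0219 to 0.0932 on leaving out 1 library, and Tmsb10 was 0.0188 with quantile normalization and -0.1225 to 0.01 on leaving out 1 library. Lcp1 there was -0.05 with median-of-ratios scaling, -0.0867 with the length trend removed and -0.0792 to 0.0773 on leaving out 1 library. The summed share was 3.21%, 3.57% and 3.10% of the listed TPM in Ndufa4l3-miR147 knockout, Ndufa4 knockout and wild type, and 3.36%, 3.76% and 3.25% without mitochondrially encoded genes, in the same order of genotypes.

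Depth is unknown, and the labels call the replicates technical. The SE of the members ran from 0.0377 (Arpc2) to 0.0989 (Pfn1) on the log2 scale. No member with a difference under 0.1 was called in the fit of all 9 libraries. The smallest difference called was 0.15, for Arpc2 in Ndufa4 knockout against wild type. Larger ones in that comparison, 0.21 for Pfn1 and 0.20 for Coro1a, were not called, so differences of that size can be missed.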
